A study of Mus musculus with 16 samples.

Results

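The genes described here are 10 hepatic genes of glucose production and of the response to fasting and insulin, chosen by symbol: Pck1, G6pc, Fbp1, Pcx, Ppargc1a, Irs2, Foxo1, Slc2a2, Tat and Sds. All 10 have a row among the 15544 genes of the liver table, and all 10 passed the filter on low values. Liver RNA was sequenced in bulk from 16 females aged 27 weeks, 4 in each of 4 groups. Control females were Esr1fl/fl, homozygous for a floxed allele of the gene for oestrogen receptor alpha, and mutant females, Esr1Nkx2-1Cre, carried the same floxed alleles plus a Cre recombinase driven by Nkx2-1. Both genotypes therefore share the floxed alleles and, per the study's methods, a mixed CD-1 and 129P2 background. Chow groups were kept on chow throughout, and HFD groups received a high-fat diet for 17 weeks. Nkx2-1 marks parts of the developing brain including the hypothalamus, and also thyroid and lung, so the liver is not a known site of this driver and liver Esr1 does not check the genotype labels; it ranged from 6.14 to 15.9 in controls and from 6.42 to 22.9 in mutants on the scale explained below. The hour at which the livers were taken, and whether the mice had been fed, are not given in the sources used here.

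When blood glucose falls, glucagon and glucocorticoids drive hepatocytes to make glucose from lactate, glycerol and amino acids. Insulin signals through its receptor and the IRS adaptor proteins to AKT, which sends the transcription factor FOXO1 out of the nucleus and so lowers the transcription of gluconeogenic genes. Glucagon raises cAMP, which acts through CREB on short promoter elements in these genes. The coactivator PGC-1 alpha, encoded by Ppargc1a, is itself a CREB target in fasted liver and amplifies the programme.

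The promoter sequence of 3 members is shown here. Pck1 and Ppargc1a passed a comparison of HFD livers by runs of library title numbers, described below, and G6pc was the most variable member. No member passed for genotype or diet in the main fit. These are also promoters through which cAMP and insulin are known to act. RefSeq promoter windows on GRCm38.p6 matched 9 of the 10 members; Sds is the member without one. Each window was searched over the 250 bases before the RefSeq start on both strands for ACGTCA, the core of the cAMP response element, for its variant TTACGTNA, for CAAAACA, the core of the insulin response element, for GTAAACA, a forkhead consensus, and for AGAACA, a glucocorticoid receptor motif. Capitals mark matches, bases inside the GENCODE gene were cut off except 1 base of the G6pc match, and the sequences run 5′ to 3′ on the strand of the gene: plus for Pck1 at chr2:173152823-173153047 and for G6pc at chr11:101367466-101367561, minus for Ppargc1a at chr5:51567727-51567975.
Pck1: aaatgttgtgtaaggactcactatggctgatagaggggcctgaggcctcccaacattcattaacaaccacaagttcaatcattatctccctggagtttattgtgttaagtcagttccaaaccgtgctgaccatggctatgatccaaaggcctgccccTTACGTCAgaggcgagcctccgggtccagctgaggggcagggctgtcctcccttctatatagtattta
G6pc: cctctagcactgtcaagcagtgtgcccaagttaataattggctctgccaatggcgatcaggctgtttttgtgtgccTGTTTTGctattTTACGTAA
Ppargc1a: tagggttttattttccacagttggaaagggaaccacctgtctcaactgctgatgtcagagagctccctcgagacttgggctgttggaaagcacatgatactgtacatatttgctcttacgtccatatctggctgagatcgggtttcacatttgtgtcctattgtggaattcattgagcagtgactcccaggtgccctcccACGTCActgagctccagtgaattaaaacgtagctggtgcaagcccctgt

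In Pck1 the match to TTACGTNA lay 93 to 86 bases before the RefSeq start and overlapped the match to ACGTCA. In G6pc the match to TTACGTNA lay 162 to 155 bases before the start, and CAAAACA, read on the other strand as TGTTTTG, lay 174 to 168 bases before it. Ppargc1a held ACGTCA 50 to 45 bases before its start. Irs2 held CAAAACA on the other strand, 37 to 31 bases before its start. Among all 32851 promoter windows, ACGTCA was found in 6.47%, TTACGTNA in 0.788% and CAAAACA in 5.56%. GTAAACA, present in 3.17% of all windows, and AGAACA, present in 16.1%, were found in none of the members' windows. These matches describe the letters of the windows and are not evidence of binding.

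Values are TPM (length-corrected transcript shares) adjusted by size factors, a scale on which levels of different genes can be compared. By the median of the 16 livers, Pck1 was the most abundant member at 1130, followed by Fbp1 at 1027, Tat at 601, Sds at 322, Slc2a2 at 259, G6pc at 232.05 and Pcx at 205. The regulators were far lower, with Irs2 at 10.5, Foxo1 at 7.01 and Ppargc1a at 3.45. Pck1 and Fbp1 overlapped across livers, as did Slc2a2, G6pc and Pcx, whereas the lowest Pcx value, 161, was far above the highest Irs2 value, 16.9. The members also differed in how much they varied between mice of one group. The within-group SD of log2(level + 1) was 0.92 for G6pc, 0.61 for Pck1, 0.60 for Tat and 0.46 for Sds, against a median of 0.26 over all tested genes. It was 0.18 for Foxo1 and 0.13 for Pcx, and only 5.94% of tested genes varied less than Pcx. G6pc spanned 7.08-fold between its lowest and highest liver, and Pcx 1.49-fold.

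On GRCm38, in the GENCODE M21 annotation, the coding genes behind these values lie on 7 chromosomes. Pck1 is at chr2:173153048-173159273, G6pc at chr11:101367561-101377903, Fbp1 at chr13:62864753-62888282, Pcx at chr19:4510472-4621752 and Slc2a2 at chr3:28697903-28731359. Foxo1 is on the same chromosome as Slc2a2, at chr3:52268336-52353221. Tat, at chr8:109990437-109999803, shares a chromosome with Irs2, at chr8:10984681-11008458, and Sds, at chr5:120476526-120483932, with Ppargc1a, at chr5:51454250-51567726.

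**Figure D1:**
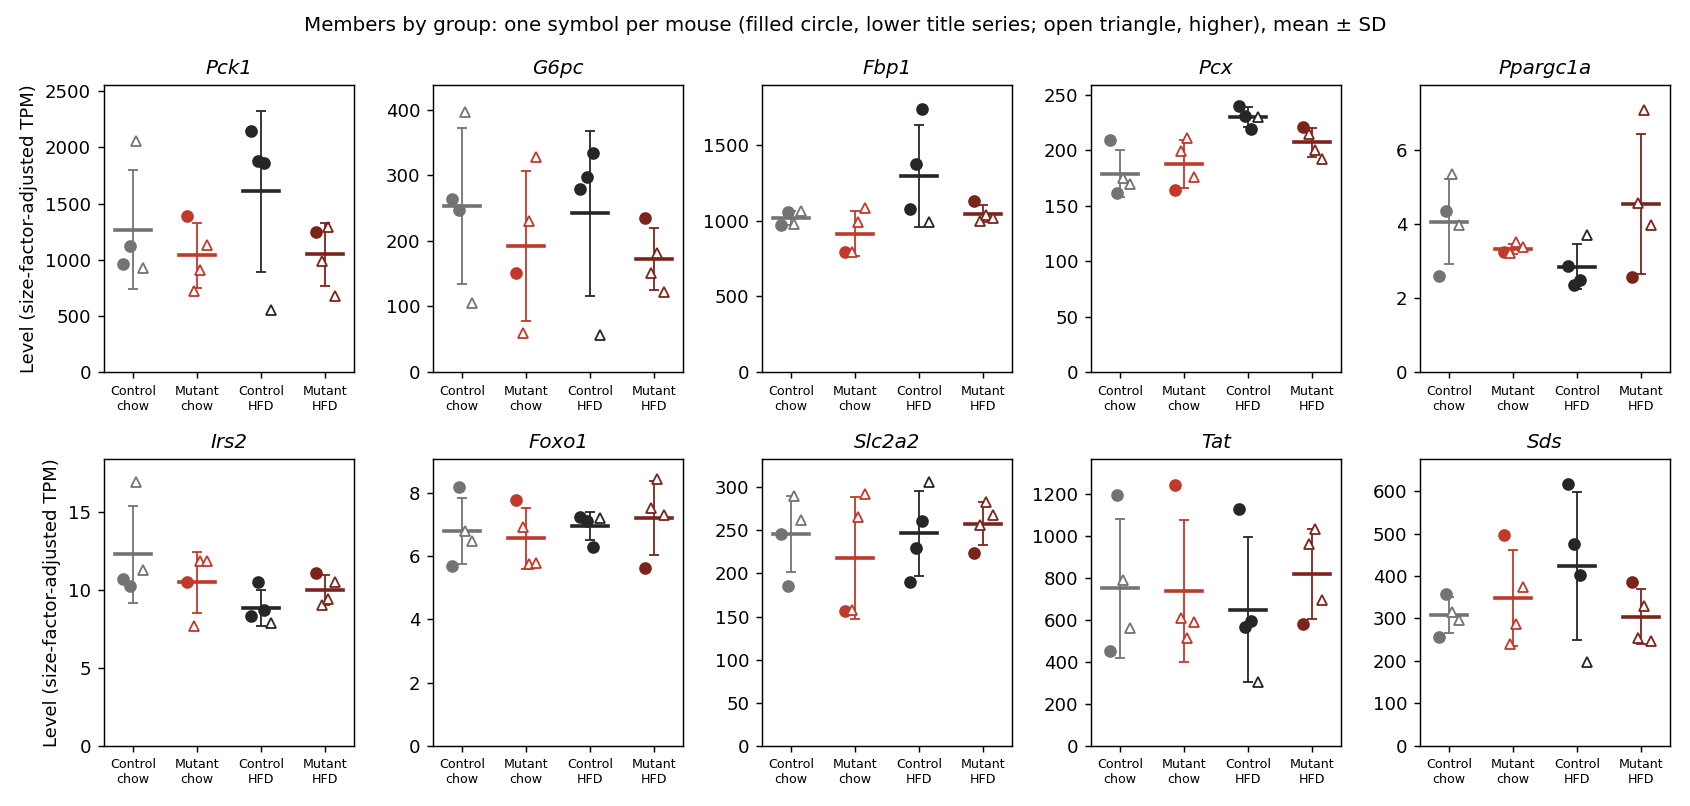
Level of each member (size-factor-adjusted TPM, linear axis from 0) in the 4 groups, with a horizontal bar at the mean, whiskers of 1 SD and 1 symbol for each mouse; filled circles are libraries of the lower title series of each diet and open triangles those of the higher. Groups overlapped for every member in every comparison except Pcx in controls, where the HFD livers lay between 219 and 240 and the chow livers between 161 and 210.

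The libraries had column totals between 905897 and 1119703, and 11834 to 12443 genes reached a level of 1. Their sequencing depth is unknown. Hepatocyte markers were abundant in every liver, 7 of 8 listed markers being in the table with a lowest value of 360. Library titles carry numbers that form runs, here called title series, and no label says what they mean. On HFD, 3 of the 4 controls are in the lower run and 3 of the 4 mutants in the higher one, so genotype and series are partly confounded there. Diet and series cannot be told apart, because each series lies within 1 diet. One liver, mutant chow replicate 2, had a Saa1 level of 20634, against at most 2886 in the other livers; Saa1 encodes an acute-phase protein. In bulk tissue, fewer cells of a type and less RNA per cell cannot be told apart.

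The first question was whether loss of the receptor in the Nkx2-1 lineage went with a different gluconeogenic programme in the liver. No such difference was detected with 4 mice per group. On chow, 8 of 10 members were lower in mutants than in controls by their fitted difference and 2 were higher, but none passed the test (limma on log2(level + 1), adjusted over 12704 genes, smallest adjusted p = 0.949) and none had an unadjusted p under 0.05. Across all tested genes, 0.0236% passed the adjusted threshold of 0.05, 6.08% had an unadjusted p under 0.05 and 3.05% did not overlap between the groups. The median log2 difference of the members was -0.18, beside 0.02 for all tested genes.

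On HFD, 5 members were higher in mutants and 5 lower, and again none passed (limma, smallest adjusted p = 0.575). Only Ppargc1a had an unadjusted p under 0.05, beside 8.6% of all tested genes. No member separated the genotypes without overlap, as 2.69% of tested genes did, and 0.0157% of tested genes passed the adjusted threshold. Weighting each library by its fit to its group changed this comparison: Pck1 (-0.88, limma adjusted p = 0.0262), Sds (-0.68, adjusted p = 0.0148) and Fbp1 (-0.44, adjusted p = 0.0156) then passed as lower and Ppargc1a (0.76, adjusted p = 0.00774) as higher in mutants. Under those weights 30.9% of all tested genes passed, so 4 of 10 members is near the share of all genes, and the weights were lowest for control HFD replicate 4 (0.228) and mutant HFD replicate 1 (0.329), the livers that differ in title series from the rest of their groups.

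The second question was what 17 weeks of HFD went with. In controls 6 members were higher on HFD and 4 lower, and in mutants 8 were higher and 2 lower; none passed in either genotype (limma, smallest adjusted p = 0.215 in controls and 0.848 in mutants), and 0% of tested genes did. In controls 2 members had an unadjusted p under 0.05, Pcx and Irs2, beside 12.9% of all tested genes, and Pcx alone did not overlap between the diets, beside 6.36% of tested genes. In mutants no member had an unadjusted p under 0.05, beside 6.86% of tested genes, and none was without overlap, beside 3.53%. With library weights, Pcx (0.36, limma adjusted p = 0.0167) and Fbp1 (0.46, adjusted p = 0.0295) passed in controls, beside 17.8% of all tested genes. For the genotype by diet interaction, which asks whether the diet difference depends on genotype, no member passed (limma, smallest adjusted p = 0.895) and 0% of tested genes did; Ppargc1a alone had an unadjusted p under 0.05, beside 4.21%.

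**Figure D2:**
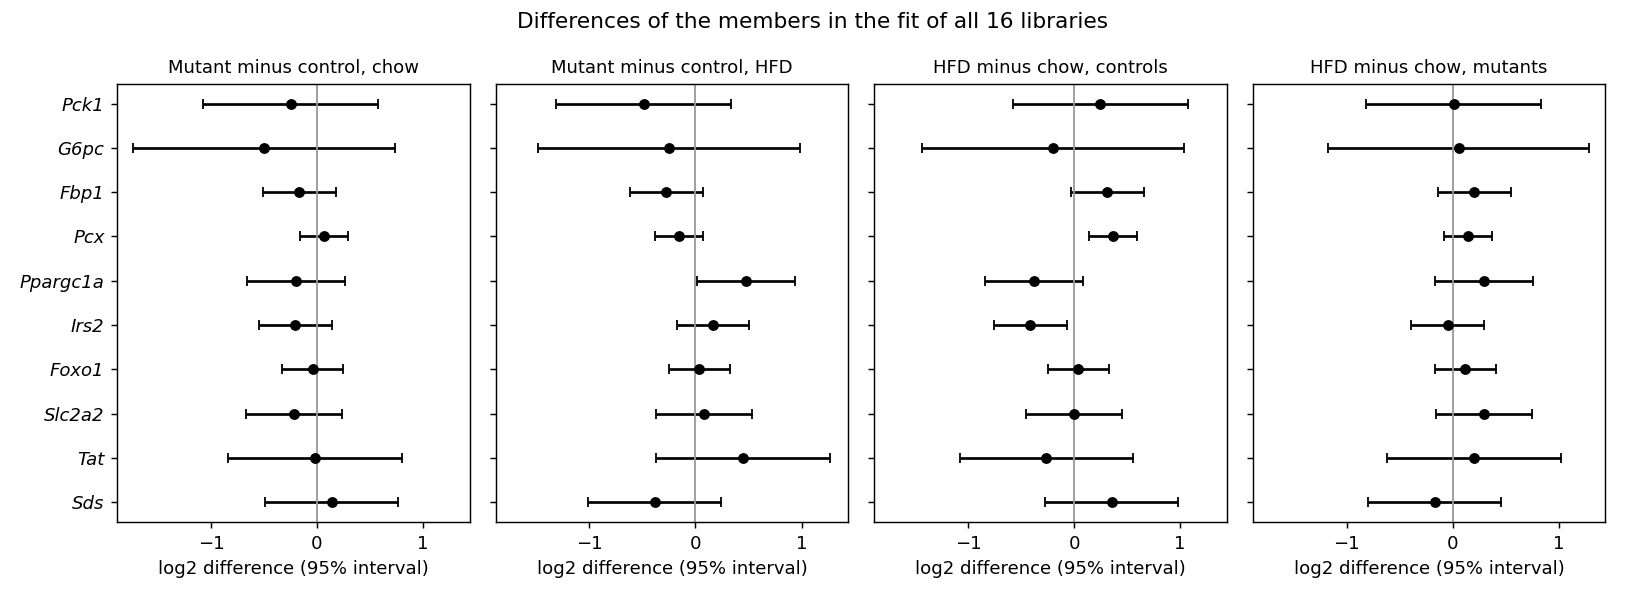
Fitted log2 differences of the 10 members (points) with their 95% intervals (bars) in 4 comparisons, from 1 fit of all 16 libraries on log2(level + 1). Intervals exclude 0 for Ppargc1a on HFD and for Pcx and Irs2 between diets in controls, none of which passed after adjustment, and they are widest for G6pc.

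Pck1 encodes the cytosolic phosphoenolpyruvate carboxykinase that commits oxaloacetate to glucose synthesis. In chow controls its levels were 966, 1125, 2056 and 931, and in chow mutants 1393, 721, 913 and 1135. In HFD controls they were 2144, 1879, 1858 and 554, and in HFD mutants 1244, 985, 1291 and 678. The HFD controls held 3 of the 4 highest values and also the lowest of all 16. The mutant minus control difference was -0.25 on chow (SE 0.39, 95% interval -1.07 to 0.58) and -0.49 on HFD (SE 0.39, -1.31 to 0.34; limma adjusted p = 0.996 and 0.679), and both intervals reach beyond a loss of 1 log2 unit. The HFD difference was -0.29 without control HFD replicate 1 or mutant HFD replicate 4, and -0.94 without control HFD replicate 4. With the title series described below in the fit, the HFD difference was 0.06 (95% interval -0.74 to 0.87).

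G6pc encodes the catalytic subunit of glucose-6-phosphatase, which frees glucose for export. Its levels were 264, 247, 396 and 105 in chow controls and 151, 58.8, 230 and 327.8 in chow mutants. On HFD they were 279, 298, 334 and 55.9 in controls and 234.2, 151, 181 and 122 in mutants. The groups overlapped, and HFD mutants spanned least. The lowest livers, control HFD replicate 4 and mutant chow replicate 2, were from opposite genotypes and diets. The differences were -0.50 on chow (SE 0.58) and -0.25 on HFD (SE 0.58), with intervals reaching -1.73 and 0.99. The chow difference was -0.0189 without mutant chow replicate 2. It turned to 0.27 without mutant chow replicates 1 and 2, the chow livers with the highest summed levels of acute-phase genes, 20980 and 86261. Control HFD replicate 1, at 26508 and the liver highest for Pck1, Pcx and Sds, also had a higher sum than mutant chow replicate 1 and was kept in.

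Fbp1, the fructose bisphosphatase of the pathway, averaged 1017 ± 47.4 (SD, n = 4) in chow controls, 915 ± 147 in chow mutants, 1296 ± 338.8 in HFD controls and 1046 ± 57.2 in HFD mutants. The wide HFD control group ran from 993 to 1741. The diet difference in controls was 0.31 (SE 0.16, limma adjusted p = 0.43), and 0.16 without control HFD replicate 3.

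Pcx encodes pyruvate carboxylase, which supplies oxaloacetate in mitochondria. Chow controls gave 210, 161, 175 and 170, and HFD controls 240, 230.8, 219 and 230. All HFD controls lay above all chow controls, by 1.29-fold (log2 difference 0.37, SE 0.11, 95% interval 0.14 to 0.59, limma adjusted p = 0.215). Chow mutants gave 164, 199, 211 and 175 and HFD mutants 221, 215, 201 and 192, which overlapped, with a diet difference of 0.15 (SE 0.11, -0.08 to 0.37). Rescaling all libraries to equal column totals, which moved the median diet difference of all tested genes in controls to -0.16, brought the Pcx difference to 0.19. The diet difference was not shown to depend on genotype (interaction -0.22, SE 0.15, limma adjusted p = 0.895).

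Slc2a2 encodes GLUT2, the glucose carrier of the hepatocyte membrane. Its group means were 246 ± 44.2, 218 ± 71.0, 247 ± 49.2 and 258 ± 25.0 (SD, n = 4 each) in chow controls, chow mutants, HFD controls and HFD mutants. The low chow mutants were replicates 1 and 2, at 156 and 158, the livers with the highest acute-phase sums of their group, and without them the chow difference moved from -0.21 to 0.20; the part of the acute phase was not tested. Its diet difference in controls, near 0, was -0.17 on that rescaling, about the shift of all genes.

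Tat and Sds feed amino acid carbon into the pathway as tyrosine aminotransferase and serine dehydratase, and both are classic glucocorticoid and glucagon targets. Tat was 450, 1196, 791 and 562 in chow controls, 1244, 609, 511 and 590 in chow mutants, 1130, 566, 593 and 306 in HFD controls and 581, 960, 1035 and 697 in HFD mutants. The highest liver of each group lay between 1035 and 1244, and no comparison separated them (mutant minus control 0.45 on HFD, SE 0.38, limma adjusted p = 0.697). That difference was 0.76 without control HFD replicate 1 and 0.14 without control HFD replicate 4. The highest Tat values on chow were in control replicate 2 and mutant replicate 1. These livers also had the highest levels of the clock gene Arntl, 13.04 and 10.97, and the lowest of the clock output gene Dbp, 4.93 and 6.68. Their summed levels of 12 clock genes were 215 and 200, but mutant chow replicate 2, with Tat at 609, had a sum of 217. In the other chow livers the sum was 465 to 771. In the 3 HFD livers with the highest Tat, Arntl was 2.83, 0.577 and 0.272. The part of the hour of collection in these levels was not tested.

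Sds levels were 257, 359, 316.03 and 297 in chow controls and 497, 240, 286 and 373 in chow mutants. On HFD they were 617, 475, 402 and 198 in controls and 385, 255, 329 and 248 in mutants. As for Pck1, the HFD controls held both the highest and the lowest liver. The mutant minus control difference was 0.14 on chow and -0.39 on HFD (SE 0.29 each, limma adjusted p = 0.999 and 0.669). The HFD difference was -0.17 without control HFD replicate 1 and -0.71 without control HFD replicate 4.

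Ppargc1a was low everywhere. Chow controls gave 2.59, 4.37, 5.36 and 3.97, and chow mutants lay close together at 3.26, 3.21, 3.51 and 3.38. HFD controls gave 2.87, 2.36, 2.49 and 3.70, and HFD mutants 2.57, 4.56, 7.09 and 3.99. On HFD 3 mutants were above all controls and 1 mutant was among them. The difference was 0.48 on HFD (SE 0.22, 95% interval 0.02 to 0.94, limma adjusted p = 0.575) and -0.20 on chow (SE 0.22), and the interaction was 0.67 (SE 0.31, limma adjusted p = 0.895). Without mutant HFD replicate 3, the highest of them, the HFD difference was 0.28. The mutant that stayed low, replicate 1, is the only one in the lower title series, and with the series in the fit the HFD difference was 0.19 (-0.24 to 0.62).

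Irs2 encodes an adaptor of the insulin receptor whose transcription insulin represses. Its levels were 10.7, 10.3, 16.9 and 11.3 in chow controls and 8.32, 10.5, 8.69 and 7.87 in HFD controls. The groups overlapped at one HFD liver, and the difference was -0.41 (SE 0.16, 95% interval -0.76 to -0.07, limma adjusted p = 0.313). Without control chow replicate 3, the liver at 16.9, it was -0.26. Chow mutants gave 10.5, 7.68, 11.9 and 11.8 and HFD mutants 11.1, 9.04, 9.39 and 10.5, with a diet difference of -0.05 (SE 0.16). Foxo1, the transcription factor restrained by insulin, lay between 5.62 and 8.43 in all livers. In the 5 comparisons of genotype and diet none of its fitted differences was further than 0.12 from 0, its diet difference in controls turned from 0.04 to -0.11 on that rescaling, and the genotype intervals, -0.33 to 0.25 on chow and -0.25 to 0.32 on HFD, were the narrowest among the regulators.

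Igfbp1, which FOXO1 induces and insulin lowers, was followed beside the members. The levels of Igfbp1 were 27.1, 58.0, 83.0 and 19.8 in chow controls and 23.2, 26.5, 23.4 and 2.76 in HFD controls, a difference of -1.39 (SE 0.59, limma adjusted p = 0.332). In mutants it was 129, 53.4, 42.2 and 85.3 on chow and 25.5, 18.3, 24.6 and 12.55 on HFD, with no overlap between the diets, as in 3.53% of tested genes (-1.81, SE 0.59, limma adjusted p = 0.623). Its lowest value lay in control HFD replicate 4, the liver with the lowest Pck1, G6pc, Tat and Sds.

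In the HFD livers more genes differed between the title series than between the genotypes. The difference between the higher and the lower series, with genotype in the fit, was chosen with earlier results known. Pck1 ran from 1244 to 2144 in the lower series and from 554 to 1291 in the higher (-1.10, SE 0.37, limma adjusted p = 0.0449). Sds ran from 385 to 617 and from 198 to 329 (-0.90, SE 0.25, limma adjusted p = 0.0195). Ppargc1a ran the other way, from 2.36 to 2.87 and from 3.70 to 7.09 (0.58, SE 0.20, limma adjusted p = 0.0479). These 3 of 10 members passed, beside 25.2% of all tested genes, which is near the background. G6pc, at 234.2 to 334 in the lower and 55.9 to 181 in the higher series, had a larger difference but a wider error (-1.53, SE 0.59, limma adjusted p = 0.0736). Without control HFD replicate 4 the G6pc difference was -0.64. G6pc, Fbp1, Sds and Ppargc1a did not overlap between the series, 4 of 10 members beside 35.6% of tested genes. The calls rest on few livers: without control HFD replicate 4 the Pck1 difference was -0.39 (limma adjusted p = 0.666), that of Sds was -0.49 (adjusted p = 0.402) and that of Ppargc1a was 0.77 (adjusted p = 0.127). Each kept its direction when any of the 8 HFD libraries was left out, but Pck1 passed in 2 of 8, Ppargc1a in 1 of 8 and Sds in 7 of 8 of these fits. Without mutant HFD replicate 1 the series difference was -1.82 for Pck1, -1.31 for Sds and 0.40 for Ppargc1a. All HFD mutants left are then in the higher series, so these values set control HFD replicate 4 against the other HFD controls.

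**Figure D3:**
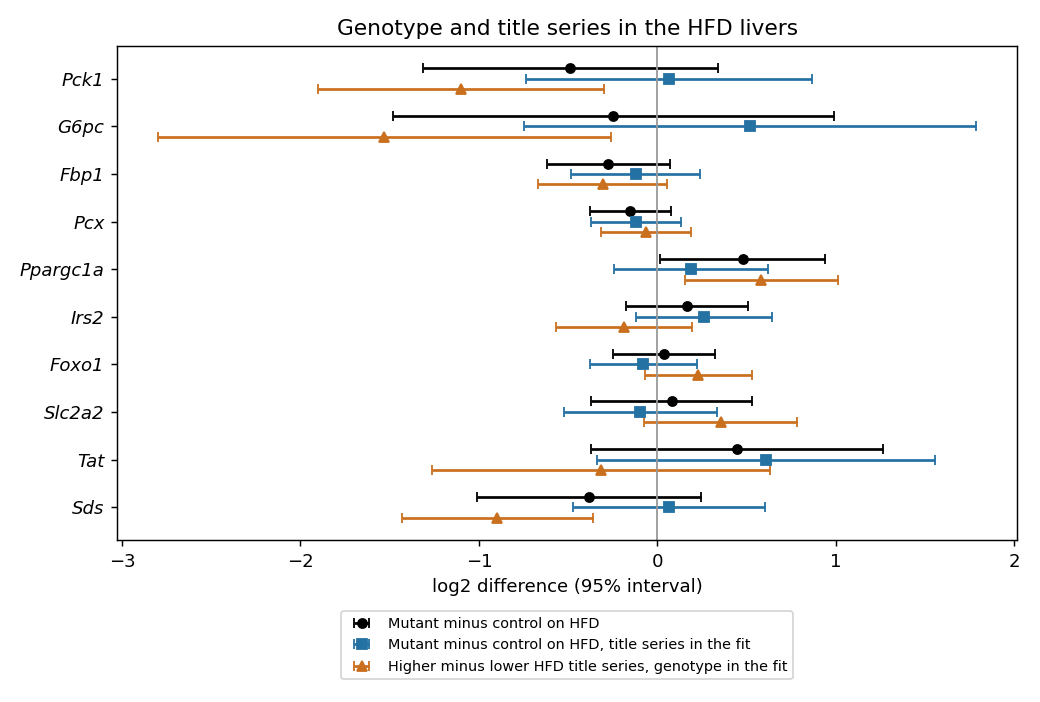
For each member in the HFD livers, the log2 difference and its 95% interval for mutant minus control (circles), the same with title series in the fit (squares), and higher minus lower title series with genotype in the fit (triangles). The series difference was -1.10 for Pck1, -1.53 for G6pc and -0.90 for Sds. The genotype difference of these 3 lay above 0 once the series was in the fit (0.06, 0.52 and 0.06), with intervals that all included 0.

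With the series in the fit, the mutant minus control difference on HFD was 0.52 for G6pc and 0.06 for Sds, where it was -0.25 and -0.39 without it, and no member passed (limma, adjusted p = 0.9996 for each). On chow, where each series holds both genotypes in more even numbers, no member differed between the series past the adjusted threshold, the nearest being Slc2a2 at 0.45 (SE 0.18, limma adjusted p = 0.366). Other measures moved with the HFD series too: the summed level of 5 red blood cell markers was 4830 to 6922 in the lower series and 1695 to 4547 in the higher. Their part in the members' differences was not tested.

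**Figure D4:**
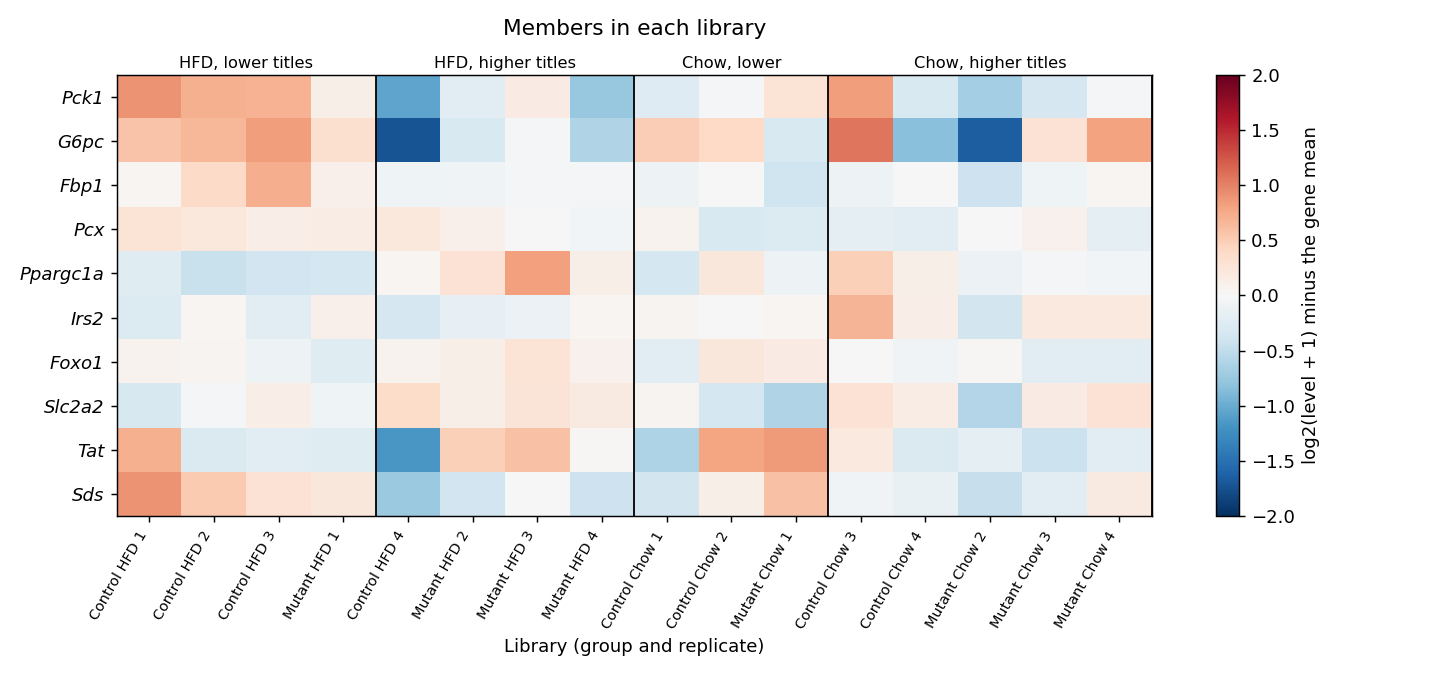
Each member in each of the 16 livers as log2(level + 1) minus the mean of that gene (red above, blue below, scale from -2 to 2), with libraries grouped by diet and title series. Control HFD replicate 4 is blue for Pck1, G6pc, Tat and Sds, the 4 members of which it holds the lowest value of all 16, and mutant chow replicate 2 is deep blue for G6pc.

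Single livers set the extremes of several members together. Control HFD replicate 1 was highest for Pck1, Pcx and Sds, control chow replicate 3 for G6pc and Irs2, and mutant chow replicate 2 lowest for Fbp1 and Irs2. Likeness between members was measured as the mean absolute difference of their z-scores over the 16 livers, where 0 would be the same pattern. The members most alike were Pck1 and Sds (0.415), Pck1 and G6pc (0.535) and Foxo1 and Tat (0.607). The least alike were Pcx and Ppargc1a (1.44). These values describe livers that share groups, series and diets.

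By the same measure over all tested genes, the genes with the pattern nearest to Pck1 were Klf15 (0.338) and Tsc22d3 (0.373), against a median of 1.14 over all tested genes. Klf15 encodes a zinc-finger factor of amino acid catabolism and Tsc22d3 a glucocorticoid-induced leucine zipper protein. Klf15 was highest at 153 in control HFD replicate 1, as was Pck1, and lowest at 54.8 in mutant chow replicate 2. Tsc22d3 was highest at 81.7 and lowest at 29.3 in the same livers as Pck1. Nearest to G6pc were Stk40 (0.315) and Slc29a1 (0.385), a nucleoside transporter; nearest to Ppargc1a were Dst (0.393), a cytoskeletal linker, and Zfp106 (0.403), and nearest to Irs2 was Uroc1 (0.497), of histidine breakdown. None of these 7 genes passed in any of the 5 comparisons (limma, smallest adjusted p = 0.43).

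**Figure D5:**
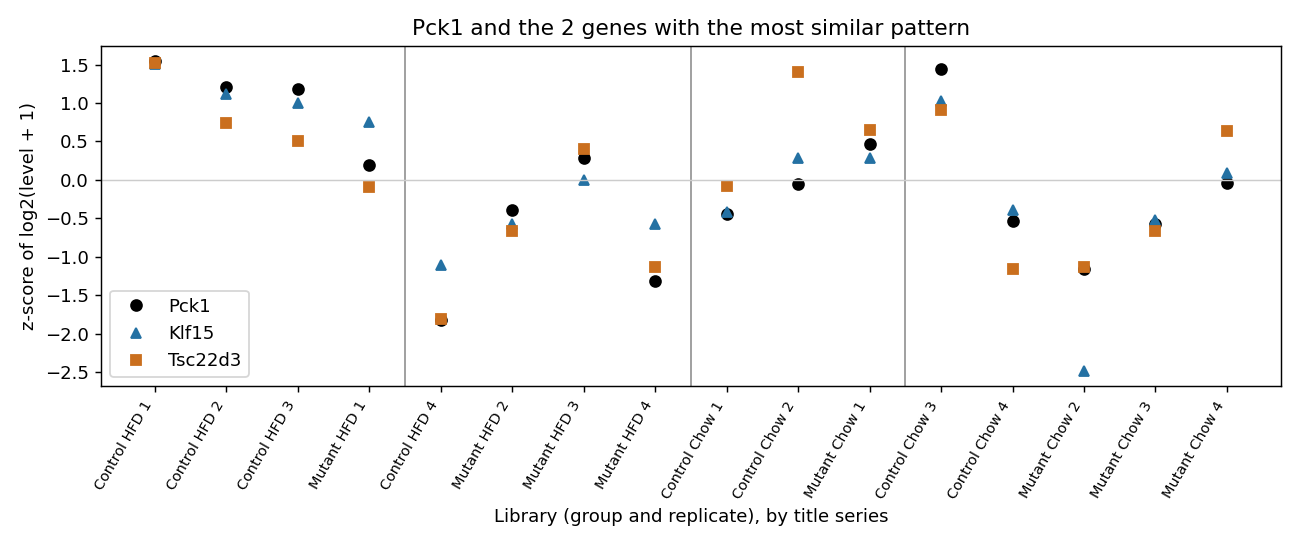
z-scores of log2(level + 1) of Pck1, Klf15 and Tsc22d3 in the 16 livers, ordered by diet and title series (vertical lines between series). The 3 genes are high together in control HFD replicate 1 and low in control HFD replicate 4, while Klf15 is below the others in mutant chow replicate 2.

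Beyond the members, 121 genes in 7 lists of the pathway were followed: gluconeogenic and glycolytic enzymes, glycogen metabolism, insulin signalling, fasting, glucagon and glucocorticoid targets, receptors and regulators of gluconeogenesis, insulin and feeding induced genes, and amino acid catabolism. Of the 119 tested, none passed the adjusted threshold in any of the 5 comparisons (limma). At an unadjusted p under 0.05, 1 was higher and 1 lower in mutants on chow, which is 1.68% of those tested beside 6.08% of all genes. On HFD 4 were higher and 4 lower in mutants, 6.72% beside 8.6%. Between the diets 11 were higher and 8 lower on HFD in controls, 15.97% beside 12.9%, and 6 higher and 4 lower in mutants, 8.40% beside 6.86%. In the interaction 2 lay above and 3 below 0, 4.202% beside 4.21%.

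In controls, the comparison with the most genes at an unadjusted p under 0.05, the 21 tested glycolytic and gluconeogenic enzymes had a median diet difference of 0.18, beside -0.01 for all tested genes. Their smallest p belonged to Pfkl, liver phosphofructokinase, at 15.6 to 20.9 on chow and 23.2 to 24.5 on HFD (0.41, SE 0.11, limma adjusted p = 0.205), and Eno1, an enolase (0.51, adjusted p = 0.279). In insulin signalling, with a median of 0.03, these were Grb10, an adaptor that dampens the insulin receptor, at 1.65 to 2.66 on chow and 3.58 to 4.18 on HFD (0.64, SE 0.18, limma adjusted p = 0.212), and Irs1, at -0.47 (adjusted p = 0.28), the second IRS adaptor of the liver. Both IRS transcripts thus had differences below 0 on HFD in controls, neither past the threshold. Irs1 also differed between the HFD title series, where it was higher in the higher series (0.46, limma adjusted p = 0.0427). Irs2 lay the other way there (-0.19, limma adjusted p = 0.466). Most HFD controls are in the lower series, and the part of the series in these differences was not tested.

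For glycogen metabolism, with a median diet difference of 0.09, the smallest p belonged to Phkg2, the liver phosphorylase kinase subunit (0.41, limma adjusted p = 0.277), and Gbe1, the branching enzyme (0.36, adjusted p = 0.493). Among the fasting, glucagon and glucocorticoid targets (median -0.08) they were Per1 (0.81, adjusted p = 0.314) and Klf9 (-0.40, limma adjusted p = 0.324), and for the receptors and regulators (median 0.02) Gcgr, the glucagon receptor, stood at 0.41 (limma adjusted p = 0.3). Insulin and feeding induced genes (median -0.25) were split: Srebf1, the lipogenic transcription factor, at 0.69 (limma adjusted p = 0.292), and Fasn, fatty acid synthase, at -0.84 (adjusted p = 0.421). For amino acid catabolism (median 0.11) Sdsl, a paralogue of Sds, stood at 0.70 (limma adjusted p = 0.336) and Cth, cystathionine gamma-lyase, at -0.68 (adjusted p = 0.35). Sdsl gave 12.98, 16.3, 18.7 and 6.33 in HFD controls, with its low value in replicate 4, the liver lowest for Sds as well. Phkg2 (-0.49, limma adjusted p = 0.00561), Gcgr (-0.47, adjusted p = 0.0178) and Sdsl (-1.16, adjusted p = 0.000552) were also lower in the higher HFD title series. They were thus higher in the series that holds most HFD controls. Gbe1 (0.61, limma adjusted p = 0.00665) went the other way. Between these series 25.2% of all tested genes passed.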

How the data were processed

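Liver RNA of 16 females was sequenced on an Illumina NovaSeq instrument after library preparation with a NEBNext Ultra II kit. Per the study's methods, the authors assigned reads to the mouse transcriptome (mm10) with kallisto in gene mode and tested genes with sleuth; versions are not given in the sources used here. The deposited unit is a gene-level signal: TPM that the authors scaled by size factors, as inferred from column totals that differ between libraries. This scale keeps no sequencing depth, so no counting error or detection limit was computed and precision rests on how far mice of one group differ. kallisto splits reads among similar transcripts, so values of paralogues such as Sds and Sdsl carry that estimate.

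Genotype and treatment labels gave the groups. Replicates carry no number in the labels; they were numbered by accession and pair no libraries. Each library is taken as 1 female; the labels do not say so, and p-values measure the spread between these libraries. A gene was tested if its level reached 1 in 4 or more libraries (12704 genes). Differences of log2(level + 1) were tested with limma 3.58.1 in R 4.3.3, in 1 fit of 4 group means with a variance trend, with Benjamini-Hochberg adjustment across these genes and a threshold of 0.05. A fold change on this scale understates changes of low genes. The fit was tested on simulated data. The plan named a count test as well, which these values do not allow.

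The members and the gene lists were chosen with earlier results of these data known. Named genes are the 10 members, Igfbp1, any pathway gene past the adjusted threshold, the 2 genes of each list with the smallest p in the comparison with most genes at an unadjusted p under 0.05, which was diet in controls, and the 2 genes nearest in pattern to Pck1, G6pc, Ppargc1a and Irs2; some genes that this rule names are not reported here. Saa1, Arntl, Dbp and Esr1 were added as context for single livers or labels. Alternatives covered scaling, filters, pseudocount, library weights, title series, the groups in the fit and each library left out; leaving out the mutant chow livers with the highest acute-phase sums, and the comparison of HFD title series, were added after seeing the data.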

Additional observations from a re-analysis of the deposited data

Results flagged for a closer look

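Among 44 sets of 4 livers (10 members and Igfbp1 in each group), 4 held a liver standing apart from the other 3 by Dixon's test at the 95% level, where chance alone would give about 1 in 20. Irs2 was 16.9 in control chow replicate 3, against 10.3 to 11.3 in the other chow controls. Foxo1 was 6.29 in control HFD replicate 3, against 7.10 to 7.25. Tat was 1244 in mutant chow replicate 1, against 511 to 609, and Igfbp1 was 2.76 in control HFD replicate 4, against 23.2 to 26.5. None of these genes passed the test in any comparison of groups.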

How the results depend on the processing

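No paired analysis was possible because the labels give no replicate numbers. Of 915 recomputed member differences in the 5 comparisons of genotype and diet, under 26 settings, 835 kept direction and side of the threshold, 74 changed sign and 6 newly passed; none of the changes of sign involved a difference that had passed. The HFD title series was counted apart: of 100 recomputed differences 84 kept direction and side, 15 no longer passed and 1 changed sign. The cause of these changes was not tested, except that fewer libraries or genes enter where they are left out.

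Counts of genes past the threshold moved as follows, from 3 (genotype on chow), 2 (genotype on HFD) and 0 (both diet comparisons and the interaction). Genotype on chow gave 1 with a filter at 5 or with the title series in the fit, 6 with library weights or only the groups compared, and 1 to 14 with 1 library left out. Genotype on HFD gave 3926 with weights, 1 with only the groups compared, 20 without the lower HFD series, and 2 to 141 with 1 library left out, the highest without mutant HFD replicate 1. Diet in controls gave 2 rescaled to equal column totals, 2264 with weights, 4 with only the groups compared, 11 without the lower series, and 0 to 928 with 1 library left out, the highest without control HFD replicate 4. Diet in mutants gave 9 with weights, 1 with only the groups compared, 2 without the lower HFD series or the 2 mutant chow livers with the highest acute-phase sums, and 0 to 2 with 1 library left out. The interaction count moved only without the lower HFD series. That fit leaves control HFD replicate 4 as the only HFD control. Its counts given above for genotype on HFD and diet in controls therefore rest on that liver. They cannot tell a difference between groups from a difference of that liver, and the interaction count of that fit is left out. The HFD title series gave 715 to 3011 with 1 library left out, from 3197, the lowest without control HFD replicate 4.

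Library weights turned G6pc to 0.25 and Slc2a2 to -0.0749 for diet in controls, Pck1 to -0.088 and G6pc to -0.48 for diet in mutants, and G6pc to -0.73 in the interaction. The title series as a term turned Tat to 0.12 on chow. On HFD it turned Pck1 to 0.064, G6pc to 0.52, Foxo1 to -0.0785, Slc2a2 to -0.0967 and Sds to 0.063, and in the interaction Pck1 to 0.31, Fbp1 to 0.072 and Foxo1 to -0.0743. Without those 2 mutant chow livers, genotype on chow became 0.27 for G6pc, 0.029 for Fbp1 and 0.20 for Slc2a2, diet in mutants -0.0004 for Pck1, -0.71 for G6pc and -0.12 for Slc2a2, and the interaction -0.51 for G6pc and -0.12 for Slc2a2. Rescaling to equal column totals moved the median of all tested genes to -0.16 for diet in controls and 0.13 in the interaction, and turned Pcx to -0.0125 for genotype on chow, Foxo1 to -0.11 and Slc2a2 to -0.17 for diet in controls and Fbp1 to 0.0548 in the interaction. Without the lower HFD series, replicate 4 is the only HFD control left, so each value with HFD controls rests on that liver. It holds the lowest Pck1, G6pc, Tat and Sds of all livers. Genotype on HFD then became 0.78 for Pck1, 1.41 for G6pc, 0.0365 for Fbp1, -0.19 for Slc2a2 and 0.47 for Sds. Diet in controls became -1.12 for Pck1, -0.034 for Fbp1 and -0.62 for Sds, diet in mutants -0.0856 for Pck1 and -0.10 for G6pc, and the interaction 1.03 for Pck1, 0.20 for Fbp1 and 0.33 for Sds.

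With 1 library left out, genotype on chow ranged from -0.40 to 0.0092 for Pck1, -0.12 to 0.041 for Foxo1, -0.30 to 0.24 for Tat and -0.048 to 0.30 for Sds. Genotype on HFD ranged from -0.85 to 0.0021 for G6pc, -0.0333 to 0.14 for Foxo1 and -0.0378 to 0.19 for Slc2a2. Diet in controls ranged from -0.57 to 0.41 for G6pc, -0.0301 to 0.12 for Foxo1, -0.13 to 0.12 for Slc2a2 and -0.58 to 0.0493 for Tat. Diet in mutants ranged from -0.15 to 0.21 for Pck1, -0.42 to 0.40 for G6pc, -0.17 to 0.0153 for Irs2 and -0.33 to 0.0203 for Sds. The interaction ranged from -0.35 to 0.62 for G6pc, -0.23 to 0.0436 for Fbp1 and -0.0045 to 0.18 for Foxo1, and the HFD title series from -1.24 to 0.61 for Tat. For Ppargc1a the series difference was 0.55 with median-of-ratios size factors (limma adjusted p = 0.0594) and so did not pass. Sequencing depth is unknown and sets no limit that could be computed here.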
